A study of Mus musculus with 12 samples.

Results

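Cultured 4T1 cells labelled as POGZ knockout were compared with cultured 4T1 cells labelled as vector control, written VC in the titles and POGZ WT in the genotype field. 4T1 is a mouse mammary carcinoma line used as a model of triple-negative breast cancer. The samples were chosen by their labels, as 3 KO-labelled and 3 VC-labelled cultures, 6 of the 12 samples of the series. The other 6 were tumors grown from the same line, 3 KO-labelled and 3 VC-labelled, used here only for comparison. For these, BalbC mice aged 8 weeks were inoculated with the cells, and the tumors were taken after 28 days. All cultures were grown in DMEM with 10% FBS, and RNA was taken at 75% confluency. The labels give no age, treatment, editing method or edited site, and do not say whether the KO-labelled cells are 1 clone or a pool, nor whether the 3 libraries of a group came from separate cultures. The p-values therefore measure the spread between these libraries, which may be technical, and a change that follows POGZ loss cannot be told apart from any other difference between the cell populations that carry the labels. RNA counts were available for 39017 genes, of which 15705 passed a filter on low counts and were tested.

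POGZ is a zinc finger protein with a transposase-derived domain. It binds the heterochromatin protein HP1 and takes part in releasing HP1 from chromosomes in mitosis. It is also found with the remodeler CHD4 and with ADNP in complexes that act on transcription. By its title, the study linked POGZ to TGF-beta and the spread of tumors. TGF-beta signals through SMAD proteins, and in carcinoma cells it is known for raising matrix and adhesion genes.

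Total counts ran from 14724518 to 21863223 per library. Libraries of the same label were alike, with Pearson correlations of log2 CPM (counts scaled to library size) over 10605 genes between 0.996 and 0.997 among KO-labelled cultures and between 0.992 and 0.996 among VC-labelled cultures, against 0.966 to 0.970 across labels. These correlations are across genes, which are not independent replicates. Epithelial markers were present in every library. The sum of 7 of them was 2737 to 2803 CPM in KO-labelled and 2577 to 2889 CPM in VC-labelled cultures, with 1 marker, the basal keratin Krt5, at most 0.0679 CPM. Of 11 leukocyte markers, 9 stayed under 1 CPM, with Cd3d and Adgre1 among those at 0. Their sum of 36.1 to 38.5 CPM in KO-labelled and 46.6 to 49.7 CPM in VC-labelled cultures came almost wholly from Cd68 and Csf1r. Of 8 fibroblast and pericyte markers, 5 stayed under 1 CPM, with Dcn and Lum at 0 and sums of 19.9 to 20.8 CPM in KO-labelled and 28.1 to 31.4 CPM in VC-labelled cultures, most of it Pdgfra. The 4 endothelial, 3 adipocyte and 2 erythroid markers together summed to at most 1.02 CPM in any library, with Emcn, Adipoq and Hba-a1 at 0. The 3 skeletal muscle markers summed to 1.51 to 2.10 CPM in KO-labelled and 0.912 to 2.05 CPM in VC-labelled cultures, with Ckm and Myh4 at 0.

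In the RNA of Pogz itself (on chromosome 3 of GRCm38) the libraries held 68.4, 67.8 and 68.6 CPM in the KO-labelled cultures, against 50.9, 52.0 and 48.1 CPM in the VC-labelled cultures. Every KO-labelled value lay above every VC-labelled value, so the RNA of the targeted gene went against the label. Its log2 fold change, KO-labelled over VC-labelled as everywhere in the text, was 0.45 ± 0.04 (SE; edgeR, Benjamini-Hochberg adjusted p = 3.66e-06). The median gene of chromosome 3, where Pogz lies, was 0.33 higher, and with chromosome medians taken out Pogz stood at 0.12. The counts cover the whole gene, so they do not show whether the transcript still encodes the protein, and all groups are named by their labels.

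The cultures differed in many genes by small amounts and in far fewer by large ones. At an adjusted p under 0.05 (edgeR, Benjamini-Hochberg), 7523 genes were called, 47.9% of those tested, 3610 of them higher (23.0%) and 3913 lower (24.9%). At least 2-fold changes were called for 300 genes that rose (1.91%) and 464 that fell (2.95%), and at least 4-fold changes for 65 (0.414%) and 163 (1.04%). The words rose and fell are used below for genes called at that adjusted p. The median log2 fold change of all tested genes was -0.01. The KO-labelled and VC-labelled values did not overlap in 4057 genes with a higher level (25.8%) and 4684 with a lower one (29.8%). Groups without overlap, named for single genes in the text, are to be read beside these shares. Protein-coding genes were called more often than processed pseudogenes, 54.2% of 12111 against 24.7% of 1184, with no adjustment for expression level. The calls rest on a narrow spread, with a median SD of log2 CPM of 0.0543 among KO-labelled and 0.0667 among VC-labelled cultures. When all 12 libraries shared 1 estimate of the spread, 1501 of 18419 genes were called, 663 higher (3.60%) and 838 lower (4.55%).

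The 8 called protein-coding genes with the largest gains in mean CPM had different roles. Thbs1, the adhesive glycoprotein thrombospondin 1, had 3017, 3133 and 3023 CPM in the KO-labelled cultures, against 1396, 1329 and 1325 CPM in the VC-labelled cultures. Fn1, fibronectin, had 1848, 1934 and 1849 CPM in the KO-labelled cultures, against 785, 799 and 733 CPM in the VC-labelled cultures. In both genes the lowest KO-labelled library was far above the highest VC-labelled one. Ahnak, a giant scaffold protein of the cell periphery, changed by 0.41 ± 0.09, the cytoplasmic actin gene Actb by 0.41 ± 0.05, the fatty acid desaturase gene Scd2 by 0.50 ± 0.04 and Anxa1, a calcium-dependent phospholipid-binding protein, by 0.64 ± 0.05 on the log2 scale. Ccn2, the connective tissue growth factor of the CCN family, gained 1.99 ± 0.05 and reached 435 against 110.3 CPM on average in KO-labelled against VC-labelled cultures. Ccdc107, the remaining gene of the 8 with the largest gain in mean CPM, stood at 0.33 ± 0.10 (SE; edgeR, Benjamini-Hochberg adjusted p = 0.0197). It lies on chromosome 4, and stood at 0.61 with chromosome medians taken out. Its groups overlapped, with 2890 CPM in KO-labelled culture 1 and 3077 CPM in VC-labelled culture 3. The call of Ccdc107 was lost without KO-labelled culture 2 (adjusted p = 0.0552 by edgeR), without KO-labelled culture 3 (0.0840) and without VC-labelled culture 2 (0.0758). Per kilobase of exon, Actb was at 1742 CPM per kilobase in KO-labelled cultures and 1322 CPM per kilobase in VC-labelled cultures, and Anxa1 at 789 CPM per kilobase in KO-labelled cultures and 508 CPM per kilobase in VC-labelled cultures. Ccdc107 stood above Actb, at 2072 CPM per kilobase in KO-labelled and 1656 CPM per kilobase in VC-labelled cultures. The strand setting of the counts is not given, and whether reads of an overlapping gene enter the Ccdc107 count was not tested.

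Among called protein-coding genes, the largest losses in mean CPM were spread over protein synthesis, iron storage, adhesion and inflammation. Fat1, a giant atypical cadherin, had 298, 290.1 and 292 CPM in the KO-labelled cultures, against 708, 849 and 731 CPM in the VC-labelled cultures. Fth1, the heavy chain of ferritin, had 724, 719.8 and 773 CPM in the KO-labelled cultures, against 1258, 1192 and 1224 CPM in the VC-labelled cultures. Neither gene had overlapping groups. Cxcl5, a chemokine that draws neutrophils, fell to 391 ± 12.6 CPM in KO-labelled cultures, against 676 ± 88.2 CPM in VC-labelled cultures (SD, n = 3 each), and Pkm, pyruvate kinase, changed by -0.40 ± 0.05. Serbp1, an mRNA-binding protein, changed by -0.53 ± 0.06 but lies on chromosome 6, and with chromosome medians taken out it stood at -0.08 and lost its call. Pabpc1, the cytoplasmic poly(A)-binding protein, changed by -0.25 ± 0.07, a call lost without KO-labelled culture 3 (adjusted p = 0.0525 by edgeR). Hsp90ab1, a constitutive heat shock protein, changed by -0.19 ± 0.05, a call lost without KO-labelled culture 1 (adjusted p = 0.0640 by edgeR), without KO-labelled culture 2 (0.0639), and with chromosome medians taken out, where it stood at -0.12 (0.0986).

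A few genes with large falls varied widely between libraries of the same label. Lars2, the mitochondrial leucyl-tRNA synthetase, had 83.7, 185 and 39.4 CPM in the KO-labelled cultures, against 541, 256 and 298 CPM in the VC-labelled cultures. The microRNA gene Mir6236 had 25.7, 67.9 and 6.77 CPM in the KO-labelled cultures, against 506, 165 and 223 CPM in the VC-labelled cultures. The ribosomal RNA gene n-R5-8s1 had 17.9, 21.4 and 1.01 CPM in the KO-labelled cultures, against 87.0, 45.3 and 49.1 CPM in the VC-labelled cultures. The groups did not overlap, but values within a label varied several-fold, with KO-labelled culture 3 the lowest and VC-labelled culture 1 the highest of the 6 in all 3 genes. Ribosomal RNA was depleted before sequencing, per the labels' protocols, and the part that depletion had in these values was not tested. Of 245 tested genes annotated as snoRNA, 5 rose (2.04%) and 35 fell (14.3%), both smaller shares than the 23.0% and 24.9% over all genes.

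**Figure D1:**
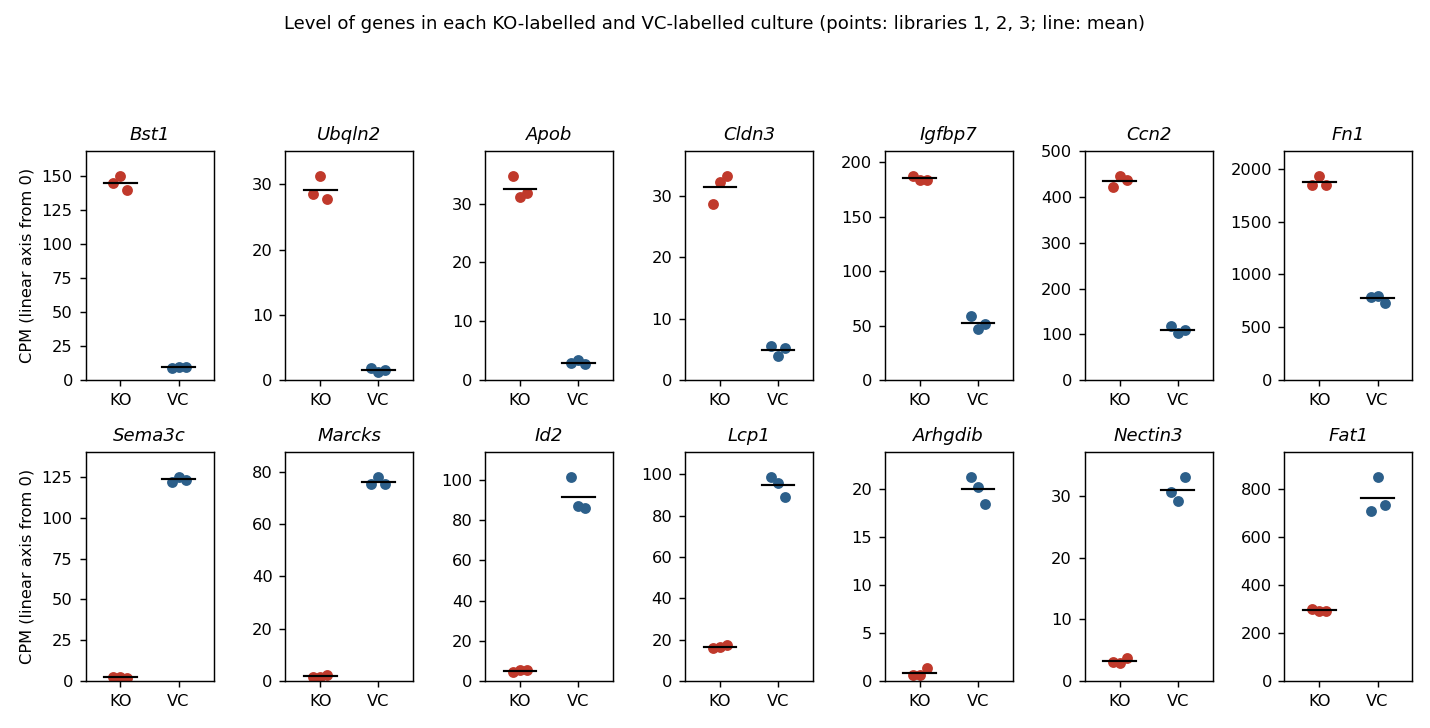
Level in CPM, on a linear axis from 0, of 14 genes named in the text. Each point is 1 library, with KO-labelled cultures (red) left and VC-labelled cultures (blue) right, and the line is the mean of 3. No gene shown has overlapping groups, and the 7 genes of the upper row are higher, and the 7 of the lower row lower, with the KO label.

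Among moderately or highly expressed genes (mean log2 CPM at or above 3), the largest rises were in genes of unrelated function. Ubqln2 (ENSMUSG00000050148, chromosome X, 153498227 to 153501570, plus strand), a ubiquilin that carries ubiquitinated proteins to the proteasome, had 28.5, 31.3 and 27.8 CPM in the KO-labelled cultures, against 1.86, 1.29 and 1.51 CPM in the VC-labelled cultures, a log2 fold change of 4.23 ± 0.12 (SE; edgeR, Benjamini-Hochberg adjusted p = 9.62e-11). Bst1 (ENSMUSG00000029082, chromosome 5, 43818885 to 43843986, plus strand), an ectoenzyme that makes cyclic ADP-ribose from NAD, had 145, 150.0 and 139.5 CPM in the KO-labelled cultures, against 8.92, 9.39 and 9.45 CPM in the VC-labelled cultures, a log2 fold change of 3.97 ± 0.05 (SE; edgeR, Benjamini-Hochberg adjusted p = 1.02e-13). Apob (ENSMUSG00000020609, chromosome 12, 7977648 to 8016835, plus strand), the apolipoprotein of low-density lipoprotein, had 34.8, 31.2 and 31.8 CPM in the KO-labelled cultures, against 2.82, 3.33 and 2.70 CPM in the VC-labelled cultures. All 3 genes were low in every VC-labelled culture and many times higher in every KO-labelled one. Cyp2c55, a cytochrome P450 of fatty acid oxidation, had 23.2, 24.7 and 20.4 CPM in the KO-labelled cultures, against 2.94, 3.59 and 2.92 CPM in the VC-labelled cultures. Cldn3, a tight junction claudin, had 28.8, 32.3 and 33.3 CPM in the KO-labelled cultures, against 5.59, 3.97 and 5.29 CPM in the VC-labelled cultures. In both the spread within a label was small beside the gap between labels. The serine protease gene Tmprss11f changed by 2.15 ± 0.07, Sulf2, an enzyme that removes sulfate from heparan sulfate, by 2.07 ± 0.07, Postn, periostin, a matrix protein bound by integrins, by 2.01 ± 0.10 and Wnt9a, a WNT ligand, by 1.88 ± 0.10. Igfbp7, a secreted protein of the IGF-binding family, rose to 185 ± 2.11 CPM in KO-labelled cultures, against 52.2 ± 6.04 CPM in VC-labelled cultures (SD, n = 3 each). Dmpk, the kinase of myotonic dystrophy, rose by 1.82 ± 0.07, Ivd, an enzyme of leucine breakdown, by 1.79 ± 0.06, Lrp4, a receptor of the LDL receptor family that takes part in WNT and agrin signaling, by 1.79 ± 0.10 and Mfap3l by 1.71 ± 0.04.

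The largest falls included genes that were clearly expressed with the VC label and nearly absent with the KO label. Dmd (ENSMUSG00000045103, chromosome X, 82948870 to 85206141, plus strand), dystrophin, had 0.232, 0.0679 and 0.137 CPM in the KO-labelled cultures, against 17.4, 18.02 and 17.3 CPM in the VC-labelled cultures, a log2 fold change of -6.81 ± 0.19 (SE; edgeR, Benjamini-Hochberg adjusted p = 1.15e-10). Sema3c (ENSMUSG00000028780, chromosome 5, 17574281 to 17730268, plus strand), a secreted semaphorin, had 2.14, 2.44 and 2.06 CPM in the KO-labelled cultures, against 122, 125 and 123 CPM in the VC-labelled cultures, a log2 fold change of -5.80 ± 0.06 (SE; edgeR, Benjamini-Hochberg adjusted p = 2.27e-14). Marcks (ENSMUSG00000069662, chromosome 10, 37133375 to 37138920, minus strand), a protein kinase C target that binds actin, had 1.45, 1.63 and 2.42 CPM in the KO-labelled cultures, against 75.4, 78.2 and 75.4 CPM in the VC-labelled cultures. In each of them the 3 KO-labelled values were a small part of any VC-labelled value, and the 3 VC-labelled libraries were close together. Arhgdib, a GDP dissociation inhibitor best known in leukocytes, had 0.637, 0.611 and 1.33 CPM in the KO-labelled cultures, against 21.3, 20.3 and 18.5 CPM in the VC-labelled cultures. Id2, an inhibitor of basic helix-loop-helix factors, had 4.64, 5.50 and 5.26 CPM in the KO-labelled cultures, against 102, 87.2 and 86.0 CPM in the VC-labelled cultures. Lcp1, the actin-bundling protein L-plastin, had 16.1, 16.2 and 17.5 CPM in the KO-labelled cultures, against 98.8, 96.0 and 89.0 CPM in the VC-labelled cultures. The KO-labelled values were lower in every library. Tfcp2l1, a transcription factor of pluripotency and epithelia, changed by -4.07 ± 0.15, Nectin3, an adhesion molecule of the immunoglobulin superfamily, changed by -3.24 ± 0.10, Adam19, a membrane metalloprotease, by -2.78 ± 0.13, Hs3st1, a heparan sulfate sulfotransferase, by -2.71 ± 0.11, and Blnk, a linker protein of B cell receptor signaling, by -2.53 ± 0.08. Car9, a hypoxia-induced carbonic anhydrase, changed by -2.59 ± 0.11, and the ribosomal protein pseudogene Rps6-ps1, whose reads cannot be set apart from those of close copies with certainty, by -3.82 ± 0.14.

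Several genes were counted in 1 label only, taken as 0 counts in all libraries of a label and at least 10 in each library of the other. Slc17a2, a phosphate and urate carrier, had no count in any KO-labelled culture, against 59, 114 and 77 counts in the VC-labelled cultures, and was at least 26.4-fold lower against a floor of 3 counts per library. Lrfn5, a synaptic adhesion protein, and Cyp4f17, a cytochrome P450, were at least 4.68-fold and 4.13-fold lower. Tie1, an endothelial receptor kinase, had no count with the KO label against 14, 10 and 11 counts with the VC label. Scn8a, a sodium channel, Asb16 and Trim40 had 11 to 17, 10 to 15 and 10 to 16 counts in KO-labelled cultures and none in VC-labelled cultures. Tie1, Scn8a, Asb16 and Trim40 were too low for the test. The floor covers counting error alone.

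Blocks of neighbouring genes shifted together, and this sets the scale on which smaller changes should be read. The median log2 fold change, over genes whose mean log2 CPM reached 3, was -0.45 on chromosome 6, -0.28 on chromosome 4, -0.12 on chromosome 1, 0.25 on chromosome 2, 0.33 on chromosome 3, 0.15 on chromosome 16, 0.14 on chromosome 10 and 0.10 on chromosome 5. Chromosomes 12, 13, 18 and X had medians between -0.00140 and 0.00131. Across the KO-labelled libraries the chromosome 6 median ran from -0.46 to -0.45, and the chromosome 3 median from 0.31 to 0.33. Chromosome medians of VC-labelled libraries ran from -0.0280 (chromosome 14) to 0.0245 (chromosome 12). For a KO-labelled library these are ratios to the mean of the 3 VC-labelled libraries. For a VC-labelled library they are ratios to the mean of the other VC-labelled libraries.

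Windows of 25 neighbouring genes showed where the shifts began and ended, with limits chosen after the values were seen. On chromosome 1 the 75 genes from Gm6085 to Rev1, chr1:4687934-38129801, had a median of -0.49, with 93.3% lower. The next 250 genes, as far as Gpr39 at 126 Mb, stood at 0.05, and the last 275 at -0.19. On chromosome 4 the 600 genes up to Gm13230, at 145 Mb, stood at -0.30, with 89.7% lower, and the last 100 at 0.02. On chromosome 5 a block of 100 genes at chr5:118245227-134456716, from 2410131K14Rik to Gtf2ird1, stood at 0.38, with 95.0% higher, against 0.03 for the 425 genes before it. On chromosome 10 the 225 genes up to Ube2g2, at 77.6 Mb, stood at 0.30, and the 175 from Slc41a2 onward at -0.04. The first 50 genes of chromosome 13, up to Hist1h2ak at 21.8 Mb, stood at 0.41 and the other 350 at -0.02. Chromosome 6 was lower throughout, with window medians from -0.56 to -0.28, and chromosome 3 higher throughout, from 0.16 to 0.44. A change in gene dosage was not measured here, and its part in these blocks was not tested. With chromosome medians taken out, 6307 genes were called (40.2%), 3088 higher (19.7%) and 3219 lower (20.5%). A chromosome median does not remove a block that covers only part of a chromosome, so for genes in such a block the value with the median of the block taken out is given where it differs much. Of the genes named below or above on chromosome 3, Spry1, Postn, Ifi44 and Cp stood at 1.22, 1.68, 2.89 and 1.37 with chromosome medians taken out. On chromosome 6, Arhgdib, Gpnmb, Abcg2 and Gars stood at -3.99, -2.24, -1.45 and -0.38.

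**Figure D2:**
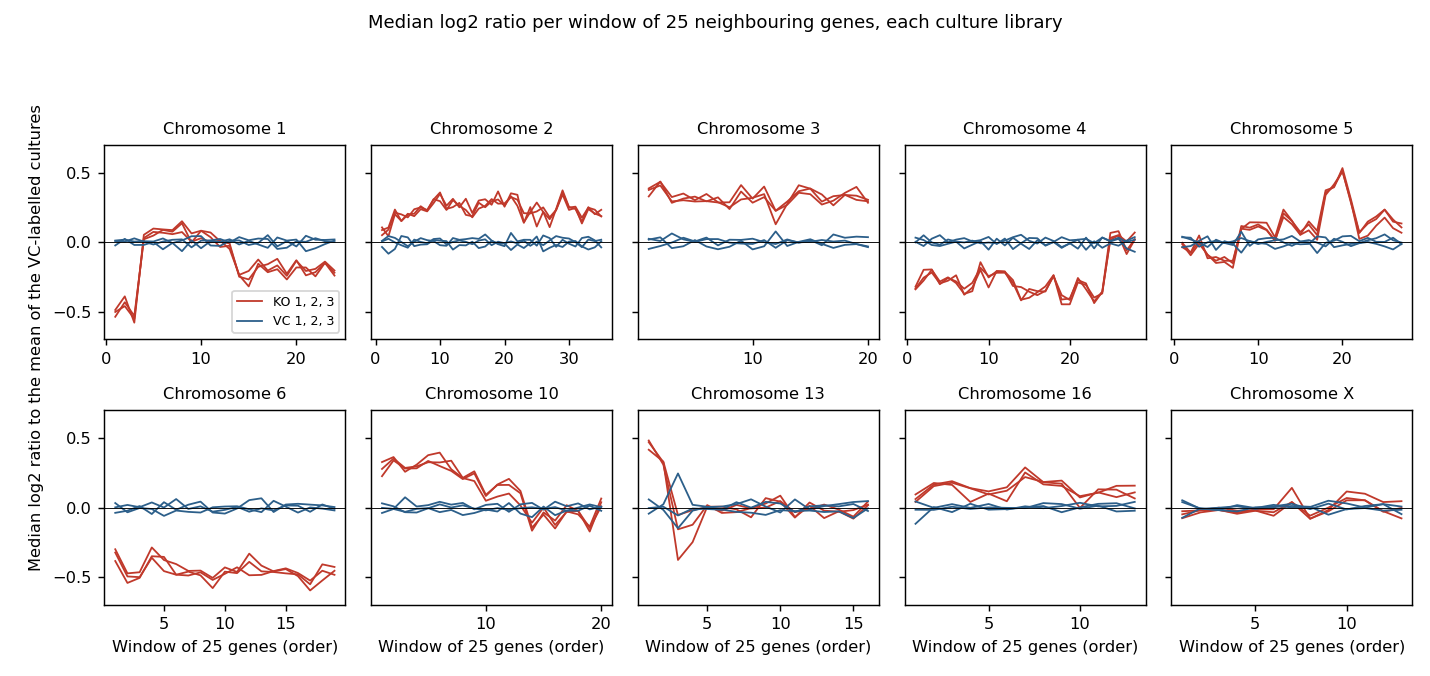
Median log2 ratio to the mean of the VC-labelled cultures in windows of 25 neighbouring genes, in order along 10 chromosomes, for each KO-labelled (red) and VC-labelled (blue) library. Each VC-labelled library is set against the mean of the other VC-labelled libraries. The 3 KO-labelled lines run together at about -0.45 along chromosome 6 and step between levels on chromosomes 1, 4, 5, 10 and 13, while the VC-labelled lines stay near 0 except in 1 window of chromosome 13.

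Gene lists were written from textbook roles, but all of them with earlier results of these data known. They are described by how many tested members rose or fell, to be read beside the 23.0% and 24.9% over all genes. Counts with all 12 libraries in 1 fit are to be read beside 3.60% higher and 4.55% lower, counts from a test against a fold change of 1.2 beside 8.87% and 10.8%, and counts with chromosome medians taken out beside 19.7% and 20.5%. Guidance genes, whose secreted or membrane-bound ligands steer cell movement, more often fell than rose. Of semaphorins, plexins and neuropilins, 1 of 22 members tested rose and 13 fell (median log2 fold change -0.32), with 5 of the falls at least 2-fold. With chromosome medians taken out 2 rose and 12 fell, and with all 12 libraries in 1 fit 8 of 22 fell (36.4%). The semaphorin Sema6a, a membrane-bound ligand, had 0.290, 0 and 0.0915 CPM in the KO-labelled cultures, against 8.47, 9.60 and 7.73 CPM in the VC-labelled cultures. Sema3b, a secreted ligand, had 1.51, 1.83 and 1.92 CPM in the KO-labelled cultures, against 5.14, 6.49 and 6.21 CPM in the VC-labelled cultures. As with Sema3c, no KO-labelled value reached a VC-labelled one. Of ephrins and Eph receptors, 2 rose and 7 fell of 15 (median -0.31), or 4 and 9 with chromosome medians taken out (median -0.31). With all 12 libraries in 1 fit, 1 of 15 fell (6.67%), a share near the 4.55% over all genes. The receptors Epha2 and Epha4 changed by -0.75 ± 0.04 and -0.67 ± 0.09 (Epha2, on chromosome 4, by -0.48 with chromosome medians taken out), and the ligand Efnb1 by -0.87 ± 0.10, while the ligand Efnb2 rose by 0.62 ± 0.04. Among netrins, slits and other guidance genes, 3 rose and 5 fell of 10 (median -0.29). The slit receptor Robo1 had 3.71, 3.19 and 3.70 CPM in the KO-labelled cultures, against 12.6, 13.6 and 10.8 CPM in the VC-labelled cultures, with no overlap, and Rgma, a membrane-anchored repulsive guidance molecule, changed by -1.23 ± 0.20, while the netrins Ntn1 and Ntng2 rose by 0.45 ± 0.05 and 0.55 ± 0.11. Ntng2 lies on chromosome 2 and stood at 0.31 with chromosome medians taken out.

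Growth factor receptors and ligands changed in both directions. Egfr, the receptor of epidermal growth factor, had 9.73, 9.98 and 10.5 CPM in the KO-labelled cultures, against 1.64, 1.61 and 1.40 CPM in the VC-labelled cultures, a log2 fold change of 2.70 ± 0.13 (SE; edgeR, Benjamini-Hochberg adjusted p = 1.1e-08). The lowest KO-labelled value was several times the highest VC-labelled one. Btc and Tgfa, ligands of this receptor, changed by -1.04 ± 0.08 and -0.79 ± 0.04, and the neuregulin Nrg1, a ligand of other receptors of the family, by -0.69 ± 0.07. Tgfa lies on chromosome 6 and stood at -0.33 with chromosome medians taken out. In the EGF list as a whole, 3 rose and 6 fell of 14 (median -0.07). Of the MAPK and ERK feedback genes, which are induced by ERK signaling and restrain it, 8 of 36 members tested rose and 17 fell (median log2 fold change -0.21). With all 12 libraries in 1 fit, 4 of 36 fell (11.1%), and against a fold change of 1.2, 9 fell. The phosphatases Dusp4 and Dusp6 changed by -1.02 ± 0.05 and -0.86 ± 0.05 and the inhibitor Spry2 by -0.75 ± 0.06. Its paralog Spry1 had 79.9, 86.0 and 82.9 CPM in the KO-labelled cultures, against 28.5, 30.0 and 26.9 CPM in the VC-labelled cultures. Spry1 was higher in every KO-labelled library, and Errfi1, an inhibitor of the EGF receptor, rose by 0.68 ± 0.04.

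In the list of FGF, PDGF, VEGF, IGF and HGF genes, 11 rose and 9 fell of 25 (median 0.16). The insulin receptor substrate Irs1 rose to 36.6 ± 2.47 CPM in KO-labelled cultures, against 15.6 ± 1.23 CPM in VC-labelled cultures (SD, n = 3 each), and the binding protein Igfbp4 fell to 122 ± 1.26 CPM in KO-labelled cultures, against 269 ± 10.2 CPM in VC-labelled cultures (SD, n = 3 each). The receptor kinases Fgfr2, Pdgfra, Csf1r and Axl changed by -0.65 ± 0.04, -0.76 ± 0.07, -0.76 ± 0.09 and -0.52 ± 0.04. Of the other receptor tyrosine kinases, 5 rose and 6 fell of 14 (median 0.08), or 3 and 5 with chromosome medians taken out (median 0.05). WNT genes were split, 10 rose and 9 fell of 27 (median 0.03), or 13 and 7 with chromosome medians taken out (median 0.09). The receptor Fzd1 had 1.22, 0.747 and 1.33 CPM in the KO-labelled cultures, against 4.85, 4.83 and 5.51 CPM in the VC-labelled cultures, without overlap, while Wls, which carries WNT ligands to the surface, and the antagonist Sfrp1 rose by 0.84 ± 0.04 and 0.84 ± 0.08. Wls lies on chromosome 3 and stood at 0.51 with chromosome medians taken out. Of Notch pathway genes, 6 rose and 9 fell of 25 (median 0.01). The ligands Dll4, Dll1 and Jag1 changed by -1.07 ± 0.11, -0.71 ± 0.09 and -0.62 ± 0.05, and the receptor Notch2 and the regulator Dtx4 rose by 0.49 ± 0.05 and 0.44 ± 0.05. Notch2 lies on chromosome 3 and stood at 0.17 with chromosome medians taken out.

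The TGF-beta and YAP target list was, like the other lists, drawn up with results of these data known. Of its 37 members tested, 20 were higher (6 at least 2-fold) and 4 lower, with a median log2 fold change of 0.24. Ccn2, Fn1 and Thbs1 are among them. Among ligands, receptors and modulators of the TGF-beta and BMP families, 18 rose and 11 fell of 45 (median 0.09). The negative regulators Skil and Pmepa1, both induced by TGF-beta, rose by 0.71 ± 0.04 and 0.72 ± 0.04, and lie on chromosomes 3 and 2, where they stood at 0.38 and 0.48 with chromosome medians taken out. The co-receptor Tgfbr3, the follistatin-like inhibitor Fstl3 and the ligand Bmp7 changed by -1.07 ± 0.23, -1.01 ± 0.09 and -0.91 ± 0.09.

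Matrix and adhesion genes held some of the largest changes in both directions. Of collagens, laminins and matrix adhesion proteins, 22 of 46 members tested rose and 17 fell (median log2 fold change 0.09), with 8 rises and 4 falls of at least 2-fold. Lama3, a laminin chain of epithelial basement membranes, and Col12a1, a collagen of fibril surfaces, changed by -1.29 ± 0.05 and -1.52 ± 0.15. Among matrix proteases, inhibitors and crosslinkers, 29 rose and 25 fell of 84 (median 0.08), with Adamts1, a protease of proteoglycans, up by 1.56 ± 0.04 and the serine protease Prss23 by 1.34 ± 0.07. Of proteoglycans and mucins, 4 rose and 4 fell of 21 (median -0.11). Sparc, a secreted matrix protein, rose to 193 ± 3.46 CPM in KO-labelled cultures, against 73.9 ± 3.81 CPM in VC-labelled cultures (SD, n = 3 each). The glypican Gpc4, a heparan sulfate proteoglycan anchored in the membrane, had 0.869, 0.543 and 0.961 CPM in the KO-labelled cultures, against 11.3, 13.8 and 11.3 CPM in the VC-labelled cultures. The syndecans moved apart, with Sdc3 at 1.46 ± 0.10 and Sdc1 at -0.96 ± 0.04. Has2, a hyaluronan synthase, fell to 45.0 ± 2.81 CPM in KO-labelled cultures, against 115 ± 3.59 CPM in VC-labelled cultures (SD, n = 3 each). In the list of glycosyl- and sulfotransferases that holds it, 19 rose and 23 fell of 74 (median 0.05).

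Integrins, the receptors that bind matrix, showed no common direction, 5 rose and 6 fell of 17 (median 0.01). Itga8, a receptor subunit for matrix proteins with an RGD motif, had 0.869, 1.02 and 0.961 CPM in the KO-labelled cultures, against 6.72, 6.17 and 6.32 CPM in the VC-labelled cultures. Itga1, a collagen receptor subunit, had 2.03, 1.83 and 2.06 CPM in the KO-labelled cultures, against 6.44, 7.35 and 4.97 CPM in the VC-labelled cultures. Itgb6, a subunit that helps activate latent TGF-beta, had 119, 116 and 119 CPM in the KO-labelled cultures, against 53.6, 55.4 and 57.2 CPM in the VC-labelled cultures. Both alpha subunits were lower and Itgb6 higher in every KO-labelled library. The subunits Itgb2 and Itgav rose by 0.69 ± 0.05 and 0.53 ± 0.04. Itgav, on chromosome 2, stood at 0.28 with chromosome medians taken out, and Itgb2, in the raised part of chromosome 10, at 0.39 with the median of that block taken out. Of cadherins and protocadherins, 2 rose and 6 fell of 19 (median -0.06), or 3 and 5 with chromosome medians taken out (median -0.06), Fat1 among the falls.

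Among junction genes and keratins, 10 rose and 7 fell of 23 (median 0.06) of the tight junction genes, 9 rose and 4 fell of 18 (median 0.11) of the desmosome and gap junction genes, and 4 rose and 3 fell of 11 (median 0.15) of the keratins. The tight junction scaffold Tjp3 fell to 22.2 ± 0.551 CPM in KO-labelled cultures, against 47.3 ± 0.403 CPM in VC-labelled cultures (SD, n = 3 each), while Cldn4 and the adaptor cingulin, Cgn, rose by 0.64 ± 0.04 and 0.64 ± 0.04. Cgn lies on chromosome 3 and stood at 0.31 with chromosome medians taken out. The desmosomal cadherin Dsg3 and envoplakin, Evpl, changed by -1.46 ± 0.14 and -1.21 ± 0.20, and Perp, a desmosomal membrane protein in the raised part of chromosome 10, by 0.50 ± 0.04, or 0.19 with the median of that block taken out. The basal keratin Krt14 had 4.23, 4.41 and 4.80 CPM in the KO-labelled cultures, against 13.2, 15.2 and 13.02 CPM in the VC-labelled cultures. The simple epithelial keratins Krt8, Krt18 and Krt19 changed by 0.41 ± 0.04, 0.50 ± 0.05 and -0.35 ± 0.04, and Krt80 by 0.88 ± 0.04. Krt14 was lower, and Krt8 and Krt18 higher, in every KO-labelled library.

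Of the S100 and annexin genes, which encode calcium-binding proteins, 14 of 19 members tested rose and 2 fell (median log2 fold change 0.36). Most S100 genes lie on chromosome 3. With chromosome medians taken out, 11 rose and 3 fell, with a median of 0.23. When all 12 libraries shared 1 fit, 7 of 19 rose (36.8%), and against a fold change of 1.2, 9 rose. S100a16 had 4.64, 3.94 and 5.40 CPM in the KO-labelled cultures, against 1.41, 1.29 and 1.40 CPM in the VC-labelled cultures, with no overlap, and S100a3 and S100a13 changed by 0.94 ± 0.17 and 0.75 ± 0.14, or by 0.62 and 0.42 with chromosome medians taken out. Among serpins and cystatins, inhibitors of proteases, 5 rose and 10 fell of 23 (median -0.21), with 7 falls of at least 2-fold. Serpine2, an inhibitor of thrombin and urokinase, had 0.0579, 0 and 0.137 CPM in the KO-labelled cultures, against 4.52, 4.99 and 5.46 CPM in the VC-labelled cultures. Serpina3g had 0.232, 0.611 and 0.412 CPM in the KO-labelled cultures, against 4.01, 4.02 and 4.21 CPM in the VC-labelled cultures. Both were nearly absent with the KO label, and Serpinb2, an inhibitor of plasminogen activators, changed by -1.15 ± 0.11. Among cathepsins and lysosomal hydrolases, 14 rose and 13 fell of 38 (median 0.03). Ctse, an aspartic protease of endosomes, had 0.348, 0.272 and 0.503 CPM in the KO-labelled cultures, against 11.7, 12.98 and 11.1 CPM in the VC-labelled cultures. Gpnmb, a lysosomal membrane glycoprotein, and Ctsc, which activates serine proteases of granules, changed by -2.69 ± 0.22 and -1.16 ± 0.06, while the peptidase Tpp1 rose by 0.72 ± 0.06.

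Cytoskeletal genes changed in both directions. Of actin regulators and myosins, 37 of 105 members tested rose and 30 fell (median log2 fold change 0.04). Beside Marcks and Lcp1, the focal adhesion protein Tns4 fell, with 52.4, 52.3 and 52.7 CPM in the KO-labelled cultures, against 251, 240.4 and 237 CPM in the VC-labelled cultures. The actin-associated protein palladin, Palld, had 156, 159 and 154 CPM in the KO-labelled cultures, against 65.9, 65.0 and 65.0 CPM in the VC-labelled cultures. The groups were apart in both. Coro2b, a coronin, and Tpm2, a tropomyosin, rose by 1.84 ± 0.13 and 1.11 ± 0.14. In the dystrophin, ankyrin and spectrin list, 12 rose and 11 fell of 33 (median 0.05), or 10 and 7 with chromosome medians taken out (median 0.05). Dtna, dystrobrevin alpha, a partner of dystrophin, had 0.348, 0.204 and 0.137 CPM in the KO-labelled cultures, against 3.95, 4.72 and 5.62 CPM in the VC-labelled cultures. Dystrobrevin alpha was low in the same libraries as dystrophin, while Epb41l2, a linker of membrane and spectrin, rose by 0.74 ± 0.04, or 0.43 with the median of its block of chromosome 10 taken out. Of septins, kinesins and tubulins, 25 rose and 25 fell of 84 (median -0.06), with the microtubule protein tau, Mapt, at -1.39 ± 0.13.

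Secreted immune signals differed gene by gene. Of interleukins, colony-stimulating factors and their receptors, 12 of 46 members tested rose and 19 fell (median log2 fold change -0.09), with 3 rises and 12 falls of at least 2-fold. Il33, an alarmin of the interleukin-1 family, had 0.348, 0.475 and 0.412 CPM in the KO-labelled cultures, against 3.61, 5.63 and 4.86 CPM in the VC-labelled cultures. Il18, another member of that family, had 6.32, 6.04 and 6.95 CPM in the KO-labelled cultures, against 1.13, 0.912 and 1.35 CPM in the VC-labelled cultures. Il33 was low and Il18 high in every KO-labelled library. Csf1, the growth factor of macrophages, had 289, 308 and 299.8 CPM in the KO-labelled cultures, against 133, 127 and 122 CPM in the VC-labelled cultures. Csf2, the growth factor of granulocytes and macrophages, had 2.84, 2.44 and 2.33 CPM in the KO-labelled cultures, against 8.35, 7.67 and 8.97 CPM in the VC-labelled cultures. The receptor chain Il6ra rose by 0.78 ± 0.08. Csf1 and Il6ra lie on chromosome 3 and stood at 0.91 and 0.45 with chromosome medians taken out. Among chemokines and their receptors, 6 rose and 7 fell of 18 (median -0.08). The monocyte chemokine Ccl2 had 38.6, 39.5 and 35.9 CPM in the KO-labelled cultures, against 12.7, 15.5 and 14.4 CPM in the VC-labelled cultures. The T cell chemokines Cxcl10 and Ccl5 rose by 1.27 ± 0.15 and 1.30 ± 0.17. Beside Cxcl5, the chemokines Cx3cl1 and Ccl20 changed by -0.84 ± 0.06 and -0.74 ± 0.08.

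Of the TNF superfamily and its receptors, 1 of 19 members tested rose and 12 fell (median log2 fold change -0.33). With chromosome medians taken out, 4 rose and 9 fell, with a median of -0.06. With all 12 libraries in 1 fit, 4 of 19 fell (21.1%). Tnfrsf26, a decoy-type receptor of the mouse, had 1.10, 1.70 and 1.10 CPM in the KO-labelled cultures, against 7.40, 5.74 and 6.92 CPM in the VC-labelled cultures, without overlap. The ligands Tnfsf13 (APRIL) and Tnfsf9 (4-1BB ligand) changed by -1.07 ± 0.12 and -1.02 ± 0.14, and the death receptor Tnfrsf10b rose by 0.17 ± 0.04, or 0.11 with chromosome medians taken out. In the list of checkpoint and NK ligands, 7 rose and 6 fell of 18 (median 0.12), with Lgals9, galectin 9, and Cd24a, a small surface glycoprotein, up by 0.52 ± 0.08 and 0.51 ± 0.05. Cd24a lies in the raised part of chromosome 10 and stood at 0.20 with the median of that block taken out. Of complement and coagulation genes, 5 rose and 7 fell of 20 (median 0.06), or 7 and 6 with chromosome medians taken out (median -0.03).

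Interferon-stimulated genes, which encode antiviral effectors and are switched on by the STAT and IRF factors, were mostly higher. Of 52 tested, 41 rose, 19 of them at least 2-fold, and 3 fell (median log2 fold change 0.71). When all 12 libraries shared 1 fit, 23 of 52 rose (44.2%). Ifi44 had 9.10, 9.37 and 7.64 CPM in the KO-labelled cultures, against 0.903, 0.751 and 1.13 CPM in the VC-labelled cultures. Ifit3, a member of a family that binds viral RNA, had 10.4, 10.3 and 9.01 CPM in the KO-labelled cultures, against 1.69, 1.93 and 1.40 CPM in the VC-labelled cultures. Every KO-labelled value was several times every VC-labelled value, from a low level in both. Its near-identical neighbour Ifit3b changed by 2.46 ± 0.17, and reads may be shared between this pair. Rsad2, viperin, had 38.0, 34.6 and 36.7 CPM in the KO-labelled cultures, against 11.6, 13.1 and 11.5 CPM in the VC-labelled cultures, and Ifit1 had 17.6, 15.5 and 15.9 CPM in the KO-labelled cultures, against 6.15, 6.17 and 6.32 CPM in the VC-labelled cultures. The members that fell were Oasl1, at -0.80 ± 0.06, Isg20, an exonuclease, at -0.28 ± 0.06, and Samd9l, at -0.35 ± 0.04. Samd9l lies on chromosome 6 and stood at 0.10 with chromosome medians taken out, no longer called (adjusted p = 0.0675 by edgeR).

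The 250 bases before the start of each gene, from RefSeq on GRCm38.p6, were searched on both strands for GAAA, any 2 bases and GAAA again, the core of the interferon-stimulated response element. It was found for 13 of the 38 interferon-stimulated genes with a sequence (34.2%), against 2.98% of 32851 windows of the same length. Scored by gene, as the members were, it was found for 3.25% of 10096 tested genes with a sequence. All 13 members were among the 30 with a sequence that rose, and 0 of the other 8 held it. A match is a description and not a binding site. The windows of Rsad2 (chr12:26456453-26456702, minus strand) and Ifit1 (chr19:34640639-34640888, plus strand) are shown because these were the matched genes with the largest rise at a mean log2 CPM of 3 or more, with the match in capitals. Both read the motif on the opposite strand, so that the capitals show its reverse complement.
Rsad2: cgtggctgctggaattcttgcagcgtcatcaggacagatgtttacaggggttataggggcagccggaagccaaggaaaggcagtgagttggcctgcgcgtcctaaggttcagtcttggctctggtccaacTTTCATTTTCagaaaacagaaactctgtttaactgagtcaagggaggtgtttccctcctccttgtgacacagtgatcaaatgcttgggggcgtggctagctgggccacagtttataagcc
Ifit1: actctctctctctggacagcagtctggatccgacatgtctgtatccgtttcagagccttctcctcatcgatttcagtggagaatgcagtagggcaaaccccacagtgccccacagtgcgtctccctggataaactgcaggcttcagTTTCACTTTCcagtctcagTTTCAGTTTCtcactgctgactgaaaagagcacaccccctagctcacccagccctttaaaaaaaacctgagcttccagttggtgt

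Genes of cholesterol synthesis and other targets of SREBP, the sterol-sensing transcription factor, rose in 29 of 38 and fell in 3, none of them 2-fold (median log2 fold change 0.35, or 0.31 with chromosome medians taken out). With all 12 libraries in 1 fit, 2 of 38 rose (5.26%), a share near the 3.60% over all genes, and against a fold change of 1.2, 19 rose. Hmgcs1, which makes the precursor of mevalonate, had 419.6, 410.4 and 405 CPM in the KO-labelled cultures, against 234, 223 and 224 CPM in the VC-labelled cultures. Idi1, the isomerase of the isoprenoid units, had 35.7, 34.7 and 32.4 CPM in the KO-labelled cultures, against 18.9, 16.4 and 17.0 CPM in the VC-labelled cultures. No KO-labelled value overlapped a VC-labelled one, but Idi1 lies in the first 50 genes of chromosome 13, whose median was 0.41, and stood at 0.56 with that median taken out. Pmvk, phosphomevalonate kinase, rose by 0.87 ± 0.06 and lies on chromosome 3, where it stood at 0.54 with chromosome medians taken out. The members that fell were the sterol reductase Tm7sf2, the desaturase Scd1 and the SREBP escort Scap, at -0.49 ± 0.10, -0.34 ± 0.05 and -0.26 ± 0.04. TCACNCCAC, a form of the sterol regulatory element, was found for 1 of the 28 members with a sequence (3.57%), Hmgcs1 (chr13:119690101-119690350, plus strand). The share was 1.05% of all windows and, scored by gene, 1.21% of 10096 tested genes with a sequence.
Hmgcs1: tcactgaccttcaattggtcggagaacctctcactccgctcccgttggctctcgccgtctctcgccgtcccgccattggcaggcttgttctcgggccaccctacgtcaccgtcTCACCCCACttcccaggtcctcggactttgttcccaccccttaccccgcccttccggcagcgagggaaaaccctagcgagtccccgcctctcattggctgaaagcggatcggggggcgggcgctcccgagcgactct

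Genes of the ATF4 response, which restores amino acids and charged tRNA in cells short of them, were lower. Of 44 tested, 34 fell and 1 rose (median log2 fold change -0.35). When all 12 libraries shared 1 fit, 7 of 44 fell (15.9%), and against a fold change of 1.2, 21 fell. Slc7a11, the cystine carrier, had 14.02, 15.1 and 13.04 CPM in the KO-labelled cultures, against 34.3, 35.8 and 36.3 CPM in the VC-labelled cultures. Asns, asparagine synthetase, had 87.1, 85.8 and 87.2 CPM in the KO-labelled cultures, against 204, 197 and 189.8 CPM in the VC-labelled cultures. Mthfd2, an enzyme of mitochondrial folate metabolism, had 51.8, 56.9 and 54.4 CPM in the KO-labelled cultures, against 125, 124 and 125 CPM in the VC-labelled cultures. All 3 genes had every KO-labelled value below every VC-labelled one. Asns and Mthfd2 lie on chromosome 6 and stood at -0.72 and -0.74 with chromosome medians taken out, while Slc7a11 lies on chromosome 3 and stood at -1.66. The member that rose was Ddit4, an inhibitor of mTORC1 signaling, at 0.72 ± 0.05, or 0.42 with the median of its block of chromosome 10 taken out. Aldh18a1, which starts proline synthesis, changed by -0.93 ± 0.04, and the glycyl- and alanyl-tRNA synthetases Gars and Aars by -0.83 ± 0.04 and -0.53 ± 0.04.

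TGATGNAAT, the core of the element that ATF4 binds with C/EBP proteins, was found in 3 of 32 promoter windows of this list (9.38%), all 3 among the 24 that fell, against 0.816% of all windows. Scored by gene, as the members were, the motif was found for 0.436% of 10096 tested genes with a sequence. Of the other 8 members with a sequence, 0 held it. With only 3 matches among 32, this cannot set them apart from the members that fell. The windows of Gars (chr6:55037751-55038000, plus strand) and Aars (chr8:111033592-111033841, plus strand) are shown as the matched genes with the largest falls at that level. The capitals are again the reverse complement of the motif.
Gars: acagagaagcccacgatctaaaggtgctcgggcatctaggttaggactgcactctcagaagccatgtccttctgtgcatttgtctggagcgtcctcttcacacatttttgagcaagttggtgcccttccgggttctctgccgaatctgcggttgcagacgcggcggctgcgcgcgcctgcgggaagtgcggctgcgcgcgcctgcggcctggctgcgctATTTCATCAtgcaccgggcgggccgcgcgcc
Aars: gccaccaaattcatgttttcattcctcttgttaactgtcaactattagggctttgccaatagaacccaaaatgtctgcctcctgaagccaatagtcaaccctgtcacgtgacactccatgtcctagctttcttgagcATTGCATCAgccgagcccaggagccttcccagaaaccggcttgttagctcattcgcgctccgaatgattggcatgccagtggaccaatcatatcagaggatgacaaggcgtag

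Metal handling changed on both sides. Of metallothionein, zinc and iron genes, 11 of 35 members tested rose and 17 fell (median log2 fold change -0.13). The metallothioneins bind zinc and copper. Mt2 had 27.6, 30.2 and 32.8 CPM in the KO-labelled cultures, against 148, 139 and 137 CPM in the VC-labelled cultures. Mt1 had 33.9, 38.0 and 41.4 CPM in the KO-labelled cultures, against 123, 109 and 109 CPM in the VC-labelled cultures. Both were lower in every KO-labelled library, as was Steap3, a ferrireductase of endosomes, at -1.58 ± 0.17. In the opposite direction, the iron exporter ferroportin, Slc40a1, had 18.1, 17.1 and 16.3 CPM in the KO-labelled cultures, against 5.81, 6.49 and 6.92 CPM in the VC-labelled cultures, and ceruloplasmin, Cp, a copper ferroxidase that works with ferroportin, had 144, 146 and 134 CPM in the KO-labelled cultures, against 45.1, 45.3 and 41.4 CPM in the VC-labelled cultures. Both were higher in every KO-labelled library, while the ferritin gene Fth1 was lower. The zinc importer Slc39a10 rose by 0.75 ± 0.04. In the NRF2 and glutathione list, 7 rose and 13 fell of 32 (median -0.02), with the quinone reductase Nqo1 at -1.51 ± 0.17, heme oxygenase, Hmox1, at -0.73 ± 0.08, catalase, Cat, at 0.60 ± 0.05 and Aifm2, a reductase that guards against lipid peroxidation, at 0.65 ± 0.07. Cat, on chromosome 2, stood at 0.36 with chromosome medians taken out, and Aifm2 at 0.35 with the median of its block of chromosome 10 taken out. Of glutathione transferases and other drug-metabolizing enzymes, 13 rose and 23 fell of 63 (median -0.07), or 13 and 14 with chromosome medians taken out (median -0.06).

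Of glycolysis and hypoxia-response genes, 6 of 41 members tested rose and 27 fell (median log2 fold change -0.44). With chromosome medians taken out, 4 rose and 30 fell, with a median of -0.25. With all 12 libraries in 1 fit, 6 of 41 fell (14.6%). Beside Car9, the inducible nitric oxide synthase Nos2 had 4.52, 5.43 and 4.71 CPM in the KO-labelled cultures, against 22.8, 20.1 and 20.4 CPM in the VC-labelled cultures. The aldolase Aldoc had 12.4, 11.9 and 11.9 CPM in the KO-labelled cultures, against 6.04, 5.74 and 4.54 CPM in the VC-labelled cultures, and was higher in every KO-labelled library. Polyamine, nucleotide and one-carbon synthesis had 8 members higher and 20 lower of 39, and the TCA cycle 6 and 15 of 37. None of these 20 and 15 falls was 2-fold. Of mitochondrially encoded genes, 3 rose and 6 fell of 29 (median -0.07).

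In lipid handling, 16 rose and 6 fell of 36 (median 0.10) in the sphingolipid list, and in the list of lipid transport and storage 7 rose and 11 fell of 25 (median -0.09), or 6 and 7 with chromosome medians taken out (median -0.01). Cers3, a ceramide synthase of the skin barrier, had 13.3, 13.7 and 13.6 CPM in the KO-labelled cultures, against 1.92, 1.50 and 1.08 CPM in the VC-labelled cultures. It was nearly absent with the VC label. Cers6 rose by 0.50 ± 0.04 on chromosome 2, and stood at 0.25 with chromosome medians taken out. Apobr, a receptor for remnants that carry Apob, rose by 0.58 ± 0.10. Mttp, which loads lipid onto Apob, had a log2 fold change of 0.54 ± 0.08 but lies on chromosome 3 and lost its call with chromosome medians taken out, where it stood at 0.22. Of prostaglandin genes, 4 rose and 11 fell of 26 (median -0.15), with the cyclooxygenase Ptgs1 at 0.88 ± 0.05 and the prostaglandin E synthase Ptges at -1.03 ± 0.16.

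Among membrane transporters, 45 rose and 64 fell of 191 (median -0.10) of the solute carriers and 9 rose and 9 fell of 25 (median 0.01) of the ABC transporters. Abcg2, an exporter of drugs and porphyrins, had 23.1, 23.2 and 21.3 CPM in the KO-labelled cultures, against 85.0, 85.3 and 82.3 CPM in the VC-labelled cultures. Slc36a4, an amino acid carrier, had 0.695, 0.475 and 0.549 CPM in the KO-labelled cultures, against 8.81, 10.6 and 11.2 CPM in the VC-labelled cultures. Both were lower in every KO-labelled library, and the sodium and calcium exchanger Slc24a3 rose by 1.46 ± 0.15. Of ion channels, 23 rose and 16 fell of 72 (median 0.07). Scn3a, a voltage-gated sodium channel, had 59.0, 50.5 and 51.2 CPM in the KO-labelled cultures, against 17.0, 18.2 and 19.02 CPM in the VC-labelled cultures, all KO-labelled values higher. The potassium channel Kcnk2 and the chloride channel Ano1 changed by -1.05 ± 0.06 and -0.94 ± 0.06. Among G protein-coupled and adhesion receptors, 8 rose and 17 fell of 50 (median -0.13), with Adgrg3 at -2.55 ± 0.13 and Adgre5 (CD97) at -1.60 ± 0.12. Of ectoenzymes of NAD and purines, 13 rose and 18 fell of 48 (median -0.03). Beside Bst1, the phosphatase Acpp, which also makes adenosine from AMP, had 5.50, 5.50 and 5.90 CPM in the KO-labelled cultures, against 0.677, 0.751 and 0.432 CPM in the VC-labelled cultures. The nucleotidase Entpd3 and the NAD-making enzyme Nmnat2 changed by -1.23 ± 0.06 and -1.20 ± 0.05.

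**Figure D3:**
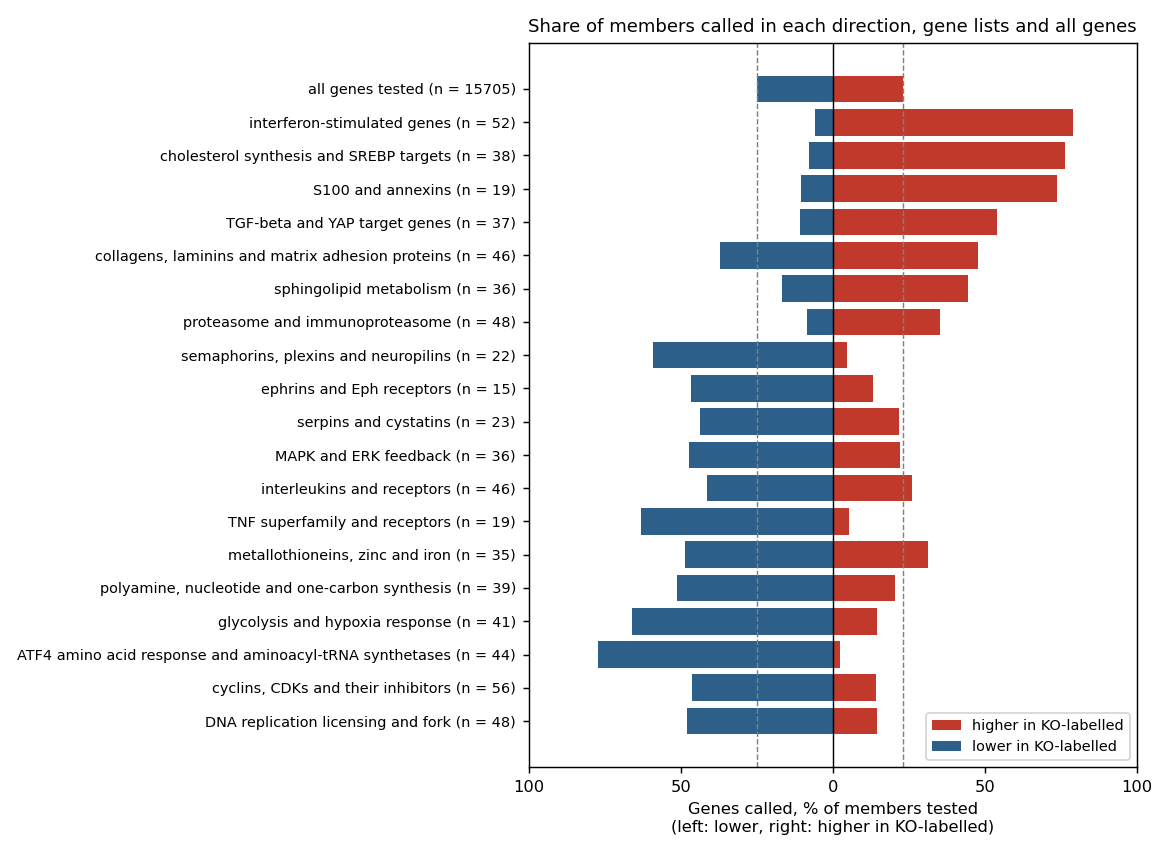
Share of tested members called higher (right, red) and lower (left, blue) with the KO label for 19 gene lists and for all genes tested, in percent, with the number tested in brackets. Dashed lines mark the shares over all genes, 23.0% higher and 24.9% lower, and the interferon list (41 higher of 52) and the ATF4 list (34 lower of 44) extend farthest to either side.

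Transcription factors included genes that were all but absent with 1 label. Of SOX, GATA, KLF, FOX and ETS factors, 19 of 72 members tested rose and 31 fell (median log2 fold change -0.12). Klf8 had 0.406, 0.0679 and 0.229 CPM in the KO-labelled cultures, against 4.23, 5.36 and 4.54 CPM in the VC-labelled cultures. Klf2, a factor of endothelial and T cell quiescence, had 4.87, 3.40 and 3.38 CPM in the KO-labelled cultures, against 1.30, 0.912 and 1.03 CPM in the VC-labelled cultures. Foxn1, a factor of thymic and skin epithelium, had 4.17, 5.16 and 4.71 CPM in the KO-labelled cultures, against 20.4, 21.8 and 19.6 CPM in the VC-labelled cultures. Klf8 and Foxn1 were lower and Klf2 higher in every KO-labelled library. Foxj1, which drives motile cilia, and Klf6 rose by 1.84 ± 0.13 and 0.80 ± 0.04. Klf6 lies in the first 50 genes of chromosome 13 and stood at 0.38 with their median taken out. Of AP-1 and immediate early genes, 8 rose and 12 fell of 29 (median -0.15), with Klf4 at -1.26 ± 0.11, Fosl1 at -0.96 ± 0.09 and Egr1 at 1.21 ± 0.09. Among homeobox genes, 4 rose and 15 fell of 38 (median -0.17), or 7 and 10 with chromosome medians taken out (median -0.03). Satb1, a chromatin organizer, had 0.290, 0.136 and 0.320 CPM in the KO-labelled cultures, against 4.69, 5.31 and 4.92 CPM in the VC-labelled cultures. Zfhx4, a zinc finger homeobox protein, had 0.116, 0.136 and 0.0915 CPM in the KO-labelled cultures, against 5.87, 6.92 and 6.05 CPM in the VC-labelled cultures. The KO-labelled libraries held few counts of either, and Pax8 changed by -2.01 ± 0.30. Of basic helix-loop-helix factors and ID proteins, 11 rose and 11 fell of 33 (median -0.08), with the mesenchymal factor Twist1 at -1.43 ± 0.10 and Id3 at 0.98 ± 0.09, opposite to Id2. Among nuclear receptors, 7 rose and 11 fell of 29 (median -0.10), with Nr3c2, the mineralocorticoid receptor, at -1.84 ± 0.17. Of circadian clock genes, 4 rose and 5 fell of 20 (median -0.03), or 5 and 3 with chromosome medians taken out (median 0.03).

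Few chromatin genes changed by much. Of 26 transposase-derived genes and relatives of POGZ, 7 rose, Pogz included, and 7 fell, none of them 2-fold. Pogk, which like POGZ holds a transposase-derived domain, had 62.9, 59.8 and 64.2 CPM in the KO-labelled cultures, against 113, 112 and 114 CPM in the VC-labelled cultures. Tigd2, of the tigger family, had 13.8, 14.3 and 13.3 CPM in the KO-labelled cultures, against 26.0, 24.8 and 24.4 CPM in the VC-labelled cultures. Both were lower in every KO-labelled library. Tigd2 lies on chromosome 6 and stood at -0.41 with chromosome medians taken out. The centromere protein Cenpb rose by 0.48 ± 0.05 on chromosome 2, or by 0.24 with chromosome medians taken out. Of HP1, CHD and other POGZ-associated proteins, 8 rose and 15 fell of 40 (median -0.08), or 5 and 8 with chromosome medians taken out (median -0.03). The MAX partner Mga had 156, 151 and 148 CPM in the KO-labelled cultures, against 85.3, 90.8 and 84.3 CPM in the VC-labelled cultures. The remodeler Chd3 had 278, 264 and 253 CPM in the KO-labelled cultures, against 158, 177 and 163 CPM in the VC-labelled cultures. Both were higher in every KO-labelled library, by 0.81 ± 0.04 and 0.68 ± 0.05 on the log2 scale. Mga lies on chromosome 2 and stood at 0.57 with the median of that chromosome taken out. Among other remodelers, 17 rose and 12 fell of 49 (median 0.08), or 17 and 7 with chromosome medians taken out (median 0.08). Of histone variants and linker histones, 0 rose and 7 fell of 18 (median -0.09), with Hist4h4, an H4 gene on chromosome 6, at -1.35 ± 0.09 or -0.89 with chromosome medians taken out.

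Zinc finger genes of the Zfp and KRAB type, many of which bind transposable elements, changed in both directions, 78 rose and 76 fell of 352 (median 0.03), or 70 and 48 with chromosome medians taken out (median 0.04), with 4 rises and 8 falls of at least 2-fold. Zfp57, which protects imprinted methylation, had 3.59, 3.33 and 3.70 CPM in the KO-labelled cultures, against 7.62, 10.0 and 8.43 CPM in the VC-labelled cultures. Zfp422 changed by -1.28 ± 0.08 and lies on chromosome 6, where it stood at -0.82 with chromosome medians taken out. Zfp704 and Zfp941 rose by 1.02 ± 0.05 and 1.03 ± 0.12. Zfp704 lies on chromosome 3 and stood at 0.69 with the median of that chromosome taken out. Zfp57 was lower in every KO-labelled library. Imprinted genes had 4 higher and 4 lower of 16, none 2-fold, or 2 and 4 with chromosome medians taken out. Among X-linked ARMCX, BEX, TCEAL and MAGE genes, 1 rose and 4 fell of 14 (median 0.03). Armcx4 had 0.174, 0.272 and 0.320 CPM in the KO-labelled cultures, against 13.8, 14.5 and 14.6 CPM in the VC-labelled cultures.

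Cell division genes were more often lower. Of cyclins, cyclin-dependent kinases and their inhibitors, 8 of 56 members tested rose and 26 fell (median log2 fold change -0.11). When all 12 libraries shared 1 fit, 5 of 56 fell (8.93%), and against a fold change of 1.2, 10 fell. The D-type cyclin Ccnd2 had 186, 192 and 191 CPM in the KO-labelled cultures, against 424, 397 and 402 CPM in the VC-labelled cultures. The inhibitor Cdkn1a (p21) had 3.65, 5.16 and 4.44 CPM in the KO-labelled cultures, against 11.9, 14.8 and 13.02 CPM in the VC-labelled cultures. Both were lower in every KO-labelled library. Ccnd2 lies on chromosome 6 and stood at -0.64 with chromosome medians taken out. The kinase Cdk18 changed by -0.91 ± 0.04 and Ccng2, a cyclin of arrested cells, by 0.53 ± 0.06. Of replication licensing and fork genes, 7 of 48 members tested rose and 23 fell (median log2 fold change -0.11), with no 2-fold change. With all 12 libraries in 1 fit, 2 of 48 fell (4.17%), a share near the 4.55% over all genes. Against a fold change of 1.2, 10 fell (20.8%). The helicase subunits Mcm3 and Mcm2 stood at -0.90 ± 0.04 and -0.57 ± 0.04, or at -0.78 and -0.12 with chromosome medians taken out. Mcm2 lies on chromosome 6, and Mcm3 in the lowered first block of chromosome 1, where it stood at -0.40 with the median of that block taken out.

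Of apoptosis genes, 12 rose and 11 fell of 38 (median 0.05), or 15 and 8 with chromosome medians taken out (median 0.10). Bmf, a BH3-only activator of apoptosis, had 28.7, 29.4 and 28.3 CPM in the KO-labelled cultures, against 11.5, 11.6 and 11.9 CPM in the VC-labelled cultures. Bcl2l15, a BCL2 relative, had 6.37, 7.95 and 7.96 CPM in the KO-labelled cultures, against 29.8, 27.7 and 24.2 CPM in the VC-labelled cultures. Bmf was higher and Bcl2l15 lower in every KO-labelled library. Casp6, an executioner caspase, rose by 1.02 ± 0.09 on chromosome 3, or 0.69 with chromosome medians taken out, and Bid, a BH3-only protein on chromosome 6, changed by -0.91 ± 0.04, or -0.45. Proteasome genes had 17 higher and 4 lower of 48, autophagy genes 17 and 6 of 40, and heat shock and chaperone genes 18 and 23 of 82, with no 2-fold change in any of these lists. With chromosome medians taken out, 10 proteasome genes rose and 3 fell, and 11 heat shock and chaperone genes rose and 18 fell.

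The same labels were compared in tumors, which also hold host cells. In bulk samples, fewer cells of a type and less RNA per cell cannot be told apart. Of 17153 genes tested in tumors alone, 0 were called (edgeR), and 956 had an unadjusted p under 0.05. The difference of the KO effect, culture minus tumor, was called for 377 of 18419 genes (2.05%). That count was 147 to 165 without any 1 of the cultures, 1588 without 1 of the KO-labelled tumors and 629 without 1 of the VC-labelled tumors. Of the 15 largest rises, 13 were tested in tumors, where 9 were higher and 4 lower, with a median log2 fold change of 0.14 against 1.99 for the 15 in culture. Of the 15 largest falls, 6 were higher and 9 lower in tumors, with a median of -0.10 against -3.24 in culture. Both sets were picked by their culture values, so smaller values in tumors are partly expected from that choice. Over all genes tested in tumors 52.7% were higher. Sema3c, at -5.80 in culture, stood at 1.50 ± 0.94 (SE) in tumors, where it was not called (adjusted p = 0.863 by edgeR). Its means there were 3.44 CPM in KO-labelled tumors and 1.36 CPM in VC-labelled tumors. Marcks, at -5.32 in culture, stood at 0.46 in tumors, with 161 CPM in KO-labelled tumors and 117 CPM in VC-labelled tumors. Bst1, at 3.97 in culture, stood at 0.98 in tumors, with 39.3 CPM in KO-labelled tumors and 19.9 CPM in VC-labelled tumors. Cyp2c55, at 2.85 in culture, stood at 2.39 in tumors, with 5.78 CPM in KO-labelled tumors and 1.01 CPM in VC-labelled tumors (adjusted p = 0.861 by edgeR), and the difference was not called (adjusted p = 0.857).

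**Figure D4:**
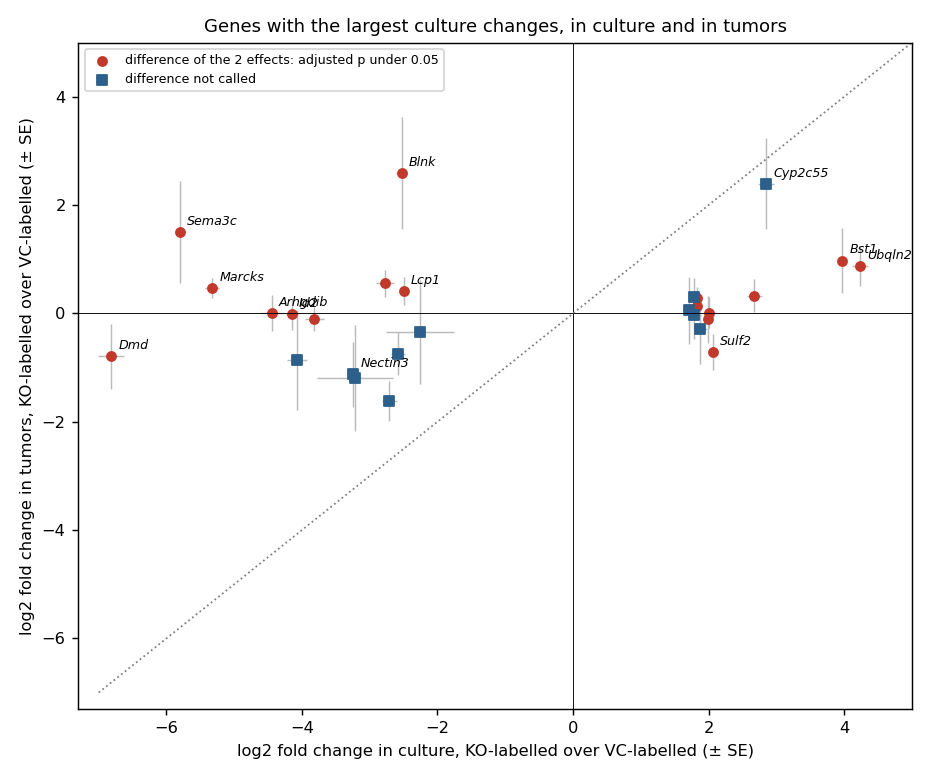
Log2 fold change, KO-labelled over VC-labelled, in culture (horizontal axis) and in tumors (vertical axis) of the 28 genes with the largest culture changes that were tested in both, with bars of ± 1 SE. Red circles are genes whose difference between culture and tumors was called and blue squares those where it was not, and most genes lie nearer to 0 in tumors than in culture, away from the dotted line of equal effects. The genes were picked by their culture values, so smaller values in tumors are partly expected from that choice.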

How the data were processed

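RNA was measured in 6 culture and 6 tumor libraries. Per the labels' protocols, RNA was purified on columns and ribosomal RNA was depleted before library preparation. The authors deposited whole-number counts per gene. Trimmomatic 0.32, STAR 2.3.0e, featureCounts 1.4.4 and mm10 are named per the submitters' processing notes. The strand setting is not given in the sources used here, so overlapping and antisense genes are uncertain. Of 39017 gene IDs, 37693 matched GENCODE M21.

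Genes were filtered with filterByExpr, scaled by TMM and tested with edgeR 4.0.16 (quasi-likelihood, Benjamini-Hochberg) in R 4.3.3 on the 6 cultures. The difference between culture and tumors was tested over 12 libraries. CPM values were computed here from the deposited counts. Alternatives included DESeq2 1.42.0 and limma 3.58.1. Culture numbers did not pair the libraries (same-number correlations -0.158, 0.0339 and 0.0711).

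Chromosome medians used genes of mean log2 CPM of at least 3, with 0.5 CPM added in ratios of single libraries. Promoters are the 250 bases before each start in RefSeq GRCm38.p6. Members and all 69 lists were chosen with earlier results of these data known. Genes named are Pogz, the 15 largest changes per direction at mean log2 CPM of at least 3, the 8 largest gains and losses in mean CPM, up to 3 called members per list and direction at mean log2 CPM of at least 1, and genes counted with 1 label only. Further genes the rule selected, and 1 list, are not reported here.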

Additional observations from a re-analysis of the deposited data

Results flagged for a closer look

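The KO effect in culture differed from that in tumors, by edgeR's interaction test over 12 libraries with Benjamini-Hochberg adjustment over 18419 genes, for 20 of the genes with the largest changes. The difference was called for 9 of the 15 largest rises and 9 of the 15 largest falls, against 2.05% over all genes. These genes were picked by culture values that also enter the test, so large differences are partly expected from that choice. The values are log2 differences, culture minus tumors.

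Among genes higher in KO-labelled cultures, the difference was 5.75 for Apob, 3.34 for Ubqln2, 2.99 for Bst1, 2.77 for Sulf2, 2.34 for Cldn3 and 2.10 for Ccn2. Apob, at means of 0.314 CPM in KO-labelled and 1.65 CPM in VC-labelled tumors, was too low to be tested in tumors alone, so its difference rests partly on counts near 0. It was 1.99 for Postn, 1.73 for Fn1, 1.68 for Dmpk and 1.55 for Igfbp7. Adjusted p-values by edgeR ran from 0.00255 (Ubqln2) to 0.0494 (Ccn2).

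Among genes lower in KO-labelled cultures, it was -7.43 for Sema3c, -6.00 for Dmd, -5.81 for Marcks, -5.13 for Blnk and -4.48 for Arhgdib. It was -4.13 for Id2, -3.71 for Rps6-ps1, -3.31 for Adam19, -2.92 for Lcp1 and -1.27 for Fth1. Adjusted p-values by edgeR ran from 1.38e-06 (Marcks) to 0.0451 (Blnk). Sema3c was at means of 3.44 CPM in KO-labelled and 1.36 CPM in VC-labelled tumors, so its difference rests partly on low counts. Tumors also hold host cells, whose part in these differences was not tested.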

How the results depend on the processing

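Against a fold change of 1.2, 3085 genes were called, 1393 higher and 1692 lower. With all 12 libraries in 1 fit, 1501 were called, 663 higher, 838 lower and 199 at least 2-fold higher. In that fit the rises were 23 for interferon-stimulated genes, 2 for cholesterol synthesis and 7 for S100 and annexins, and the falls 7 for ATF4, 8 for semaphorins, 4 for TNF, 5 for cyclins, 4 for MAPK feedback and 6 for glycolysis. Against a fold change of 1.2, rises were 19 for cholesterol synthesis and 9 for S100 and annexins, and falls 21 for ATF4, 10 for cyclins and 9 for MAPK feedback. The count for culture minus tumors ran from 147 to 1588 with single libraries left out.

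The chromosome medians were 0.3372 (3), -0.268 (4) and -0.4435 (6) with RLE scaling, and -0.2751 for chromosome 4 with upper-quartile scaling. With single cultures left out they ran from 0.3312 to 0.3486, from -0.2702 to -0.2546 and from -0.457 to -0.4333. Genes counted with 1 label only numbered 7 to 9.

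The replicate block, for which the numbers gave no pairing, called 7237 genes, and 0 of 230 named genes lost their call. Of these genes, 77 lost it with all 12 libraries in 1 fit, 9 against a fold change of 1.2, 3 with DESeq2 and 4 with chromosome medians taken out, among them Samd9l, which then stood at 0.10 (adjusted p = 0.0675 by edgeR). The causes were not tested. Low-count genes are limited by depth.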
